A study of Arabidopsis thaliana with 12 samples.

Results

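The 10 genes described here were taken by their gene identifiers from the 23337 genes of the deposited expression table. They encode a selection of the cyclophilins of the cytosol, the secretory pathway and the plastid. Of these, 5 encode cytosolic proteins that consist of little more than the cyclophilin domain: CYP18-3 (AT4G38740, also ROC1), CYP18-4 (AT4G34870), CYP19-1 (AT2G16600), CYP19-2 (AT2G21130) and CYP19-3 (AT3G56070). The others are CYP40 (AT2G15790, also SQUINT) in the cytosol, CYP20-1 (AT5G58710) in the secretory pathway, CYP20-3 (AT3G62030) in the chloroplast stroma, and CYP20-2 (AT5G13120) and CYP38 (AT3G01480) in the thylakoid lumen. All 10 passed the filter on low counts. Polyadenylated RNA of Arabidopsis thaliana seeds was sequenced 1 day after imbibition, after stratification for 2 days at 4 °C on plates. The 4 groups of 3 libraries each were WT normal (wild type, unheated), atcyp18-1 normal (a mutant of the nuclear cyclophilin gene CYP18-1, unheated), WT heat (wild type at 45 °C for 2 h) and atcyp18-1 heat (the mutant at 45 °C for 2 h). No source used here gives the kind of allele, the number of mutant lines or the origin of the replicates, so p-values measure the spread between these libraries, which may be technical.

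Cyclophilins are peptidyl-prolyl cis-trans isomerases: they speed up the turn of the peptide bond before proline during protein folding, and many bind the drug cyclosporin A. Plants carry a large family, with single-domain enzymes in the cytosol and targeted forms in the endomembrane system, the chloroplast and the nucleus. In the plastid they assist photosystem assembly and link redox state to enzyme activity, and in the cytosol CYP40 is a co-chaperone of HSP90.

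Library totals ran from 7468920 to 10506500 counts. CYP18-1 was read at 22.0 ± 0.995 CPM (counts scaled to the library total after TMM normalization) in WT normal and 1.93 ± 0.414 in atcyp18-1 normal, and at 25.6 ± 0.547 and 3.37 ± 1.04 CPM in heat (SD, n = 3 each). The 3 heat markers HSP101, HSFA2 and HSP17.6A-CI summed to between 46.6 and 87.1 CPM in unheated libraries and between 1555 and 5179 CPM in heated ones. Of the 7 seed storage and maturation markers all were read, with a summed level of 1703 to 2851 CPM in WT normal, 6234 to 7273 in atcyp18-1 normal, 2006 to 3699 in WT heat and 5246 to 8305 in atcyp18-1 heat. The 2 seed coat markers BAN and TT19 were near 0 (0.222 to 1.11 CPM summed). In whole seeds, fewer cells of a type and less RNA per cell cannot be told apart.

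The coding sequences of the 5 cytosolic single-domain genes were 519 to 531 bases long and alike. By global alignment CYP18-3 and CYP19-2 were the closest pair, at 83.1% identical bases, followed by CYP18-4 and CYP19-1 at 78.9%, while CYP18-3 and CYP19-3 were the least alike at 66.9%. Of 537 columns in an alignment of all 5, 287 (53.4%) held the same base. The 60-base stretch in which the 5 coding sequences together are most alike is shown. Capitals mark the 16 positions that differ among them, and the stretches lie at chr4:18083764-18083823 (minus strand), chr4:16614766-16614825 (plus), chr2:7201180-7201239 (plus), chr2:9055766-9055825 (minus) and chr3:20807143-20807202 (minus), all in coding exons, in the RefSeq TAIR10.1 genome.
CYP18-3: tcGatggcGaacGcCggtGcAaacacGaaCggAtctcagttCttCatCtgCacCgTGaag
CYP18-4: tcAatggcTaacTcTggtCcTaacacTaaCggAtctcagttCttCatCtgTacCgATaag
CYP19-1: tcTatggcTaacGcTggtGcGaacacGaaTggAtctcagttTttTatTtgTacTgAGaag
CYP19-2: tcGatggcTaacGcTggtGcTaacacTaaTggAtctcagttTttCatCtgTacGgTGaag
CYP19-3: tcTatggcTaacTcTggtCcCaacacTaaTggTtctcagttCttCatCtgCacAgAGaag
None of the 50-base words of these 5 genes' transcripts occurred in an annotated transcript of another gene on either strand. Among the other members, CYP20-2 shared no word, and CYP20-3 (0.122%), CYP38 (0.377%), CYP20-1 (3.83%) and CYP40 (3.89%) shared few. Annotated transcripts of a neighbour on the opposite strand overlapped the exons of these last 4 genes, by 51 bases in CYP20-3, 62 in CYP38, 84 in CYP20-1 and 74 in CYP40. A strand-specific step is not described in the labels' protocols, so reads from those overlaps cannot be assigned to a strand.

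Compared between genes per kilobase of transcript, the members differed widely in level. In WT normal the levels in CPM per kb were 514 ± 29.6 for CYP19-1, 464 ± 27.7 for CYP18-4, 283 ± 14.3 for CYP20-3, 162 ± 11.2 for CYP19-3, 128 ± 3.46 for CYP20-1, 110 ± 6.62 for CYP18-3, 29.4 ± 1.91 for CYP20-2, 14.7 ± 1.46 for CYP38, 10.01 ± 1.04 for CYP19-2 and 2.74 ± 0.544 for CYP40 (SD, n = 3 each). The libraries of the first 2 genes in that order overlapped, while those of every other pair of neighbours did not. With the longest annotated transcript as the length, CYP19-1 stood at 392 CPM per kb, below CYP18-4, so the order of these 2 depends on the length used. In atcyp18-1 normal CYP18-4 led with 625 ± 38.6 against 532 ± 13.8 CPM per kb for CYP19-1, and CYP38 (14.03 ± 0.674) and CYP19-2 (13.5 ± 0.474) overlapped. In heat no neighbours overlapped: CYP18-4 was highest, at 894 ± 25.9 in WT and 1000.2 ± 73.8 CPM per kb in atcyp18-1, and CYP40 lowest, at 3.37 ± 1.43 and 4.81 ± 1.06. CYP19-2 stood below CYP38 in both unheated groups by its mean and above it in both heated groups.

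**Figure D1:**
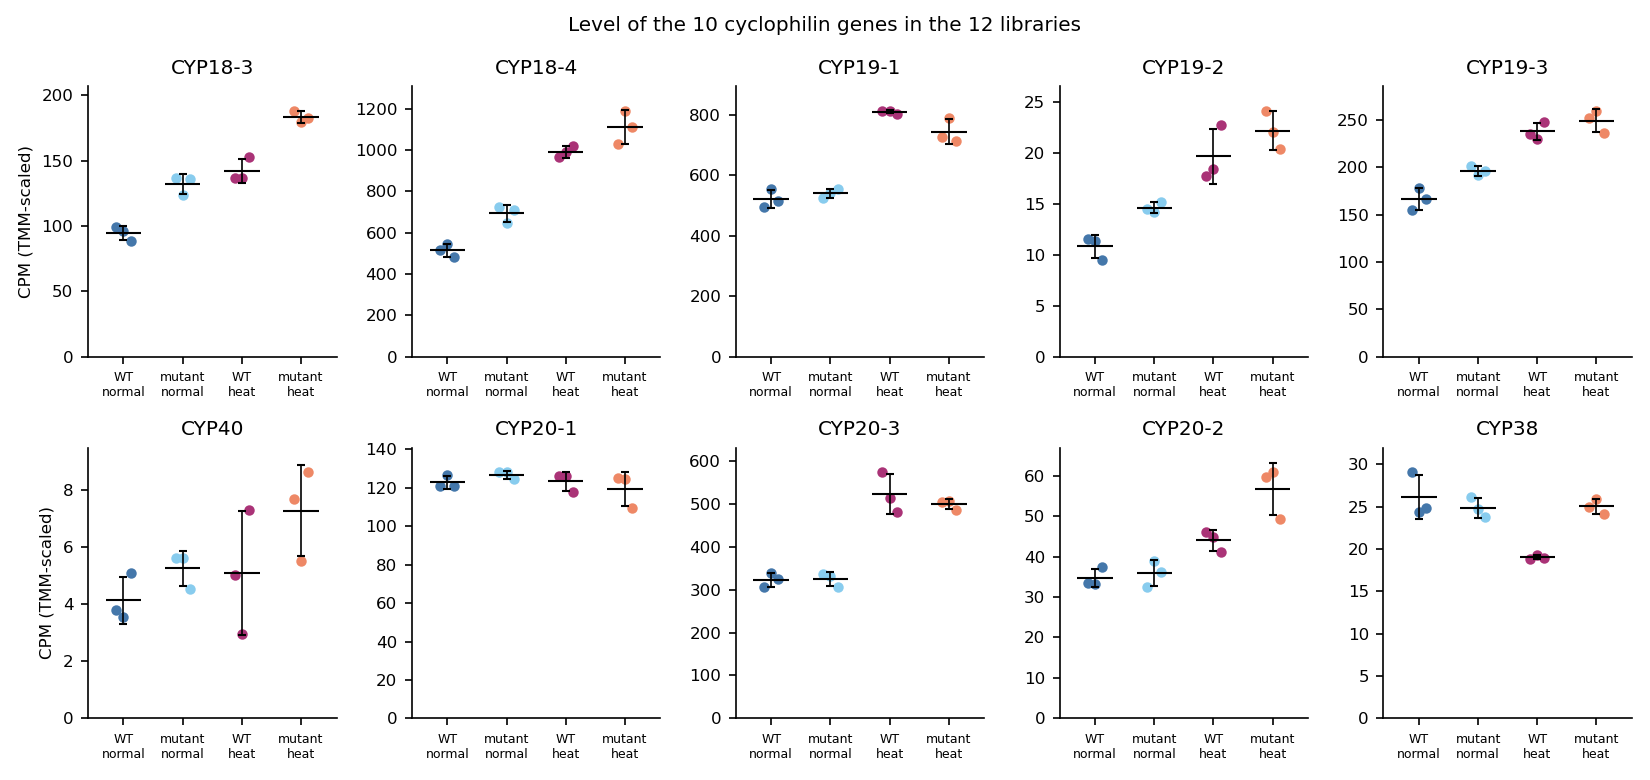
TMM-scaled CPM of each gene in the 12 libraries, grouped by genotype and condition; horizontal lines are means and bars the SD (n = 3). The 6 heated libraries lie above the unheated ones of their own genotype for the 5 cytosolic single-domain genes, CYP20-3 and CYP20-2, and the 3 WT heat libraries are the lowest for CYP38.

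All 5 cytosolic single-domain genes rose in heat in both genotypes. Across the 10 members, 7 rose and 1 fell in WT heat against WT normal (adjusted p under 0.05 by edgeR's quasi-likelihood test over all tested genes), where 50.1% of all tested genes were called in either direction, 25% as higher. In the mutant 7 rose and 0 fell, against 46.3% of all tested genes called. Heated and unheated libraries did not overlap for 8 members in WT, where 56% of all tested genes had this (27.5% as higher), and for 7 members in the mutant, where 54.6% did (27% as higher). The median log2 change of the members was 0.55 in WT and 0.47 in the mutant, and that of all tested genes was 0.00 in both. Dividing by plain library totals in place of TMM scaling moved the median of all genes to -0.21 in WT and -0.23 in the mutant, and the share of calls that were higher from 49.9% to 27.6% and from 49.5% to 22.9%. Changes below are relative to the TMM-scaled median. The seed storage and maturation markers overlapped between heated and unheated WT libraries in their sum, with 4 of 7 called higher in WT and 1 of 7 in the mutant.

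CYP18-4 had the largest fitted rise of the members in both genotypes, but its lead was small against the SE. Next were CYP19-2 in WT (log2 change 0.87 ± 0.12) and CYP20-2 in the mutant (0.66 ± 0.10). The level of CYP18-4 was 517, 544 and 483 CPM in unheated WT and 965, 989 and 1022 in heated WT. In the mutant it was 726, 645 and 709 CPM unheated and 1028, 1191 and 1112 heated. The heated libraries did not overlap the unheated ones in either genotype. The log2 change was 0.95 ± 0.07 in WT (SE, adjusted p = 9.2e-10) and 0.68 ± 0.07 in the mutant (adjusted p = 1.19e-07).

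CYP19-1 was close to CYP18-4 in level but rose less. It was read at 497, 556 and 517 CPM in unheated WT, 814, 814 and 805 in heated WT, 526, 543 and 554 in the unheated mutant, and 729, 791 and 714 in the heated mutant. All heated libraries were above all unheated ones. The log2 change was 0.63 ± 0.06 in WT (adjusted p = 7.19e-08) and 0.46 ± 0.06 in the mutant (adjusted p = 6.06e-06).

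CYP18-3, a cytosolic isomerase also called ROC1, was read at 99.2, 96.4 and 88.3 CPM in unheated WT, 137, 136 and 153 in heated WT, 136, 124 and 136 in the unheated mutant, and 188, 179.8 and 182 in the heated mutant. Heated and unheated libraries of a genotype did not overlap, and the unheated mutant lay above unheated WT and just below heated WT. The log2 change in heat was 0.59 ± 0.07 in WT (adjusted p = 1.25e-06) and 0.47 ± 0.07 in the mutant (adjusted p = 1.91e-05).

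CYP19-3 was read at 155 to 178 CPM in WT normal, 230.4 to 248 in WT heat, 192 to 202 in atcyp18-1 normal and 237 to 259.95 in atcyp18-1 heat. It rose by 0.51 ± 0.07 in WT (adjusted p = 3.18e-06) and 0.34 ± 0.07 in the mutant (adjusted p = 0.000374), and plain library totals ended the mutant's call (0.12, adjusted p = 0.2). CYP19-2, the closest relative of CYP18-3 by coding sequence, was the weakest of the 5, with 9.55 to 11.6, 17.7 to 22.8, 14.2 to 15.2 and 20.4 to 24.2 CPM in the same order. It rose by 0.87 ± 0.12 in WT (adjusted p = 6.57e-06) and 0.61 ± 0.12 in the mutant (adjusted p = 0.000359), with no overlap in either.

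The summed level of these 5 genes was 1259.8 ± 63.3 CPM per kb in WT normal, 1514 ± 49.3 in atcyp18-1 normal, 2105 ± 40.9 in WT heat and 2208 ± 110 in atcyp18-1 heat (SD, n = 3 each). Heat raised the sum 1.67-fold in WT and 1.46-fold in the mutant, with no overlap (p = 0.1 in each by an exact permutation test, two-sided, which cannot go lower with 3 libraries against 3). The makeup of the pool also differed between groups. CYP18-4 made up 36.8% ± 1.03 of the sum in WT normal, 42.4% ± 0.460 in WT heat, 41.2% ± 1.32 in atcyp18-1 normal and 45.3% ± 1.53 in atcyp18-1 heat, while CYP19-1 made up 40.8% ± 1.05, 37.9% ± 0.970, 35.1% ± 1.51 and 33.1% ± 0.644. For CYP18-4 heated and unheated shares did not overlap in either genotype, and mutant and WT shares did not overlap in either condition (exact permutation p = 0.1 for each of the 4). For CYP19-1 the shares of mutant and WT did not overlap in either condition (p = 0.1 each by the exact permutation test), and those of heated and unheated mutant libraries did (p = 0.2 by the same exact test). CYP19-3 held 12.8% ± 0.547 in WT normal against 10.95% ± 0.254 in WT heat, and CYP19-2 under 1.05% in every library. The size of the shares depends on the length used. With the longest annotated transcript, CYP18-4 held 41.1% and CYP19-1 34.8% in WT normal, so CYP18-4 led in that group.

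**Figure D2:**
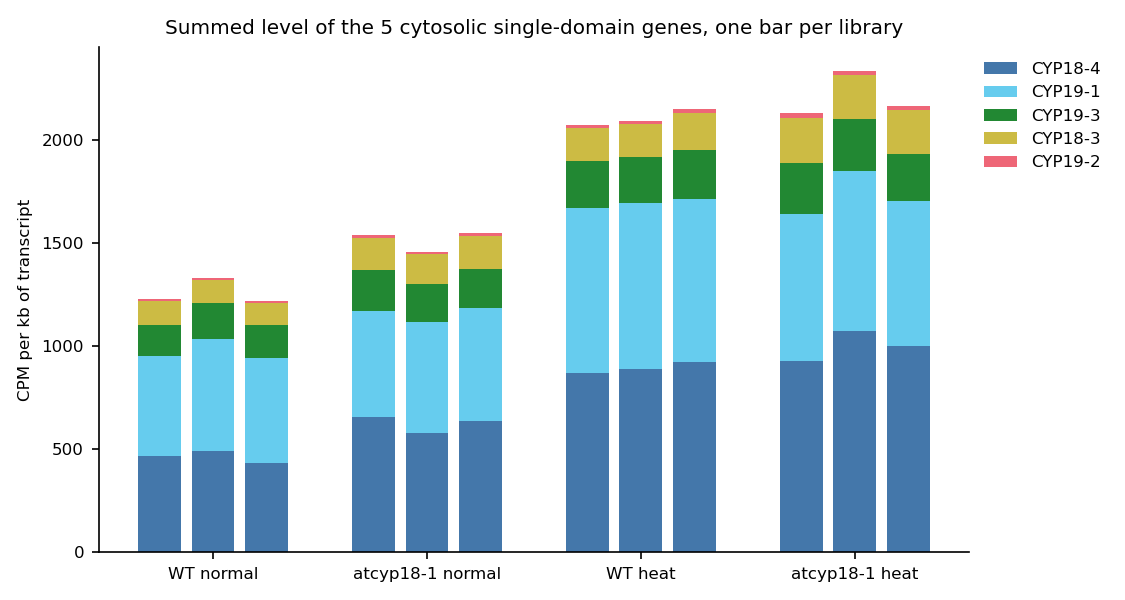
Summed level of the 5 cytosolic single-domain cyclophilin genes in CPM per kb of transcript, 1 stacked bar per library in the 4 groups, divided by gene. The bars reach 1216 to 1332 in WT normal against 2073 to 2151 in WT heat, and CYP18-4 takes a larger part in heat.

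A block of letters bound by heat shock factors in many organisms is the inverted repeat GAANNTTC or TTCNNGAA. Both read the same on either strand. In the window from 250 bases before to 50 after the annotated transcript start, CYP19-1 held 1 match (GAAAGTTC, starting 126 bases upstream), CYP19-2 held 1 (GAAAATTC, 89 bases upstream) and the other 8 members none. Of 27443 nuclear protein-coding genes, 19.3% held at least 1 of these, 11.6% the first form and 9.17% the second. The 250 bases before the start are shown for the 2 genes with a match, in capitals. They are also shown for CYP18-4, which had the largest fitted rise and no match. They lie at chr2:7200173-7200422 (plus strand), chr2:9056482-9056731 (minus) and chr4:16613954-16614203 (plus) in RefSeq TAIR10.1.
CYP19-1: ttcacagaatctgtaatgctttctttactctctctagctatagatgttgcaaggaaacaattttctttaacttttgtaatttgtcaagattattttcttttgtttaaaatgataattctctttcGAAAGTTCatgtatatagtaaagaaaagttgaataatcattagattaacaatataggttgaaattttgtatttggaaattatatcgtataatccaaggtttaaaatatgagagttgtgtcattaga
CYP19-2: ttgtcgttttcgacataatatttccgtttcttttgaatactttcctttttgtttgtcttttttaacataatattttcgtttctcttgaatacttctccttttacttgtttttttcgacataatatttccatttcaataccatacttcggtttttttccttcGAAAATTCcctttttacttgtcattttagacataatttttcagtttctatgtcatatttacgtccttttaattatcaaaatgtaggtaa
CYP18-4: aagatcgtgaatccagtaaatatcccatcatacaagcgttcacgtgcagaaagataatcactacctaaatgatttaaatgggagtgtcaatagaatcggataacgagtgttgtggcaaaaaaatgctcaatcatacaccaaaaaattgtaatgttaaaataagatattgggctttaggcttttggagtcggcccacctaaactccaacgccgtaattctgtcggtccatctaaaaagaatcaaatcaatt
A match is a run of letters and not a shown binding site.

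CYP40 was the weakest member, with 25 to 72 counts per library. Its levels were 3.81, 3.54 and 5.08 CPM in unheated WT, 5.04, 2.96 and 7.29 in heated WT, 5.61, 5.62 and 4.55 in the unheated mutant, and 7.71, 5.51 and 8.63 in the heated mutant. All groups compared overlapped. The log2 change in heat was 0.31 in WT (95% interval -0.23 to 0.84, adjusted p = 0.337 by edgeR) and 0.46 in the mutant (-0.05 to 0.98, adjusted p = 0.131). Its known partners were read far higher: of the 4 cytosolic HSP90 genes and AGO1, 4 rose in WT heat and 5 in the mutant. Of all tested genes, 25% were called higher in WT heat and 22.9% in the mutant. HSP90.1, the heat-inducible form, went from 84.2 ± 16.5 to 1095 ± 311 CPM in WT and from 58.0 ± 13.3 to 1802 ± 399.9 CPM in the mutant (SD, n = 3 each).

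CYP20-1, an isomerase of the secretory pathway, had the steadiest level of the 10. It was read at 121, 127 and 121 CPM in unheated WT, 126, 126 and 118 in heated WT, 128, 128 and 125 in the unheated mutant, and 125, 124 and 109 in the heated mutant. Groups overlapped in both heat comparisons. The log2 change was 0.01 in WT (95% interval -0.14 to 0.15, adjusted p = 0.953 by edgeR) and -0.09 in the mutant (-0.23 to 0.06, adjusted p = 0.343), whereas with plain library totals it was called lower in both, by -0.20 (adjusted p = 0.0454) and -0.31 (adjusted p = 0.00334).

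CYP20-3, the stromal enzyme that binds the serine acetyltransferase of cysteine synthesis, was the most abundant member outside the cytosol. It was read at 306, 338 and 324 CPM in unheated WT, 574, 513 and 481 in heated WT, 337, 331 and 306 in the unheated mutant, and 505, 508 and 486 in the heated mutant. All heated libraries were above all unheated ones. It rose by 0.70 ± 0.07 in WT (SE, adjusted p = 8.65e-08) and 0.62 ± 0.07 in the mutant (adjusted p = 5.18e-07). Of its 4 known plastid partners, 1 rose and 1 fell in WT heat, where 25% of all tested genes were called higher and 25.1% lower, and 2 rose and 1 fell in the mutant, where 22.9% were called higher and 23.4% lower. The rise in WT was that of the peroxiredoxin 2-CysPrxA (0.17, adjusted p = 0.0491), a call lost in 11 of the 12 fits with 1 library left out (the exception leaves out WT heat replicate 3) and reversed in sign with plain library totals (-0.037). OASB, a plastid O-acetylserine thiol-lyase of cysteine synthesis, fell by 0.31 in WT (adjusted p = 0.00109) and by 0.44 in the mutant (adjusted p = 2.53e-05). The second peroxiredoxin, 2-CysPrxB, a paralog of 2-CysPrxA, rose by 0.79 in the mutant (adjusted p = 0.00115).

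The 2 thylakoid lumen members differed from each other. CYP20-2, a subunit of the chloroplast NADH dehydrogenase-like complex, was read at 33.6, 33.3 and 37.3 CPM in unheated WT, 46.1, 44.9 and 41.2 in heated WT, 32.4, 39.0 and 36.3 in the unheated mutant, and 59.8, 60.9 and 49.3 in the heated mutant. Heated libraries were above unheated ones in both genotypes. It rose by 0.34 ± 0.10 in WT (adjusted p = 0.00548) and 0.66 ± 0.10 in the mutant (adjusted p = 9.62e-06), and plain library totals ended the call in WT (0.14, adjusted p = 0.294).

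CYP38, needed for assembly and repair of photosystem II, was the only member that fell. It was read at 29.1, 24.4 and 24.9 CPM in unheated WT, 18.8, 19.3 and 18.9 in heated WT, 26.1, 24.7 and 23.8 in the unheated mutant, and 25.0, 26.0 and 24.2 in the heated mutant. The 3 WT heat libraries lay below the other 9. The log2 change was -0.46 ± 0.10 in WT (adjusted p = 0.000513), and 0.012 ± 0.10 in the mutant (95% interval -0.19 to 0.22, adjusted p = 0.932), or -0.22 there with plain library totals. The difference between these changes was 0.47 ± 0.14 and did not pass (adjusted p = 0.0999 for the interaction in edgeR's model).

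**Figure D3:**
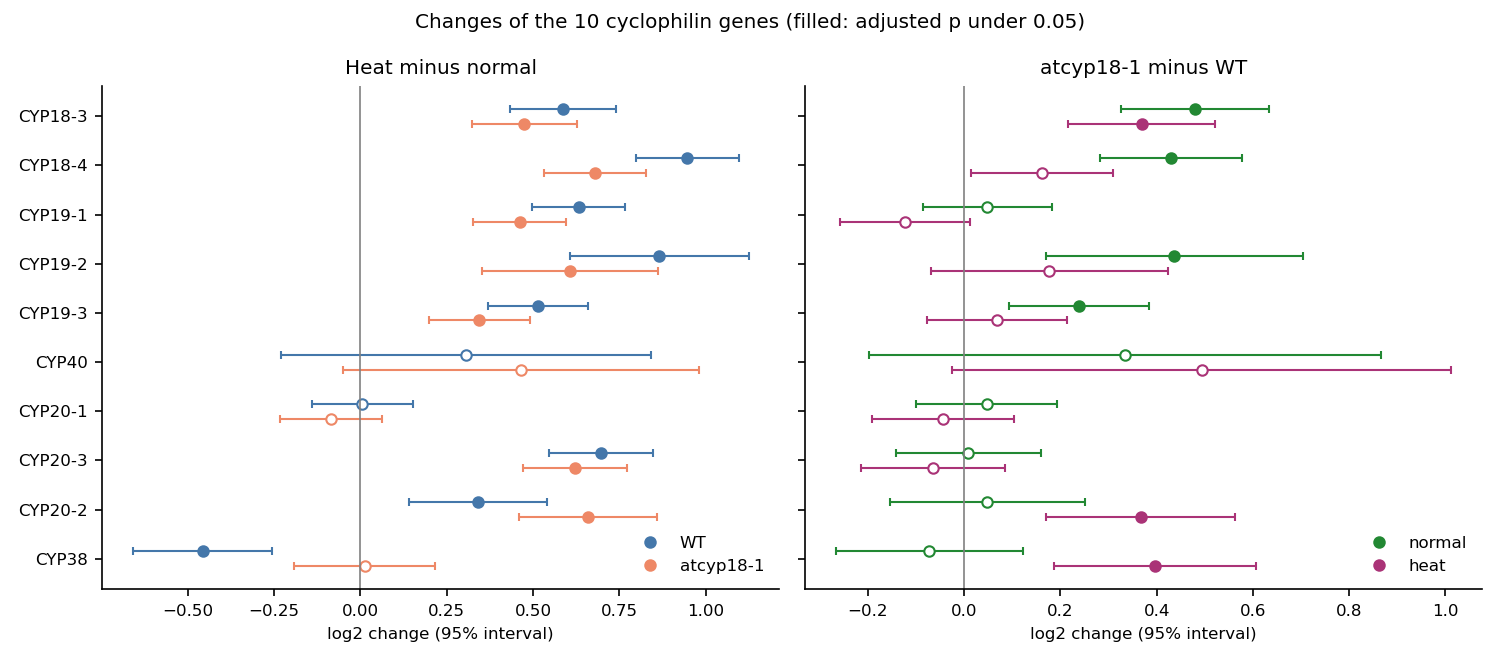
Fitted log2 change of each gene with its 95% interval, on the left for heat against normal in WT and in atcyp18-1 and on the right for atcyp18-1 against WT in normal and heated seeds; filled points passed an adjusted p of 0.05. On the left the 5 cytosolic single-domain genes, CYP20-3 and CYP20-2 lie right of 0 in both genotypes and CYP38 left of it in WT at -0.46.

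CYP38 was also the member with a splicing event in the authors' deposited tables. Of 16 such tables, 1 listed an event in any of the 10 genes: retention of intron 3 of CYP38 in WT heat against WT normal. That table listed introns of 1259 genes, and the one for heat in the mutant 1291, beside 23337 genes in the expression table. Intron 3 of CYP38 lies at chr3:189628-189740 (plus strand) in the authors' coordinates, and both ends meet exon ends of TAIR10.1 within the coding region. It is shown with its first and last 2 bases in capitals, and with the first stop codon met in the annotated reading frame, TAA at its bases 2 to 4, also in capitals.
CYP38 intron 3: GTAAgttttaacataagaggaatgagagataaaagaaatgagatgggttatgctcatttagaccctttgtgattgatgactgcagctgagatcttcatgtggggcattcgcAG
The authors' deposited ratio of intron reads to adjacent exon reads was 0.170, 0.168 and 0.277 in WT normal and 0.458, 0.409 and 0.437 in WT heat. The groups did not overlap, and the authors' deposited table gave a ratio of means of 2.12 with an unadjusted p = 0.0141. The scaled intron signal behind it was low, at 12, 10 and 21.8 in WT normal against 22.0, 19 and 25.0 in WT heat, and these values overlapped, while the gene's own level was lower in WT heat. The table for heat in the mutant listed no event in CYP38, nor did the one for mutant against WT in heat. No intron values of the mutant were at hand for this gene, so its retention there is not known.

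**Figure D4:**
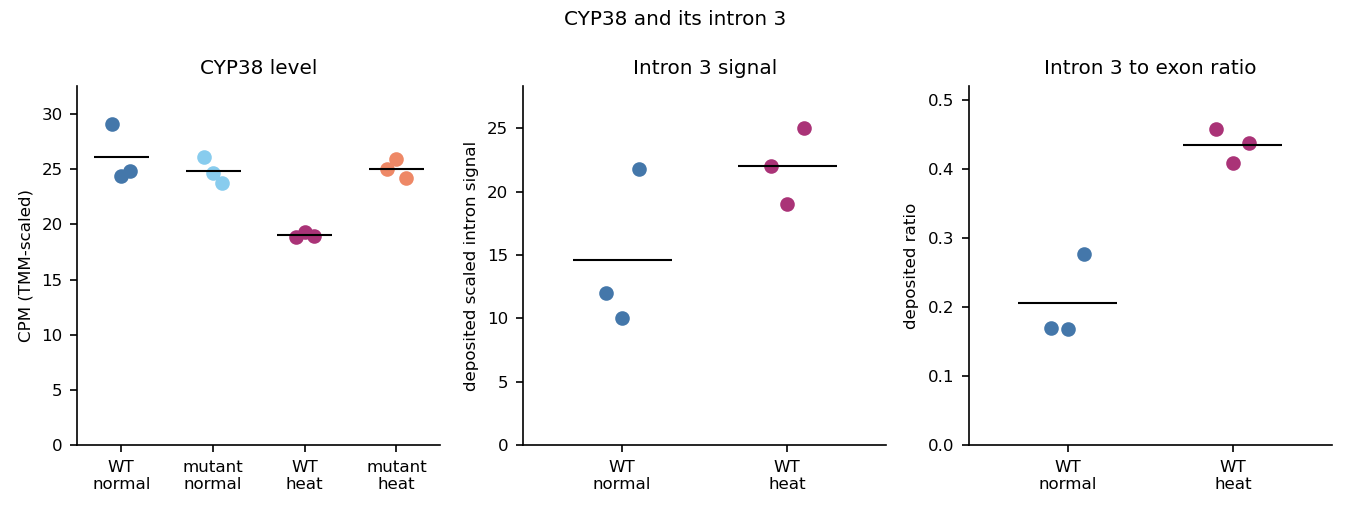
CYP38 level in CPM in the 4 groups (left), and the authors' deposited scaled signal of intron 3 (middle) and its ratio to the adjacent exons (right) in WT normal and WT heat; points are libraries and lines are means (n = 3). The WT heat libraries are lowest in level, at 18.8 to 19.3 CPM, and highest in the ratio, at 0.409 to 0.458.

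Between genotypes, 4 of the 10 members were higher in atcyp18-1 normal than in WT normal and 0 lower, where 23.4% of all tested genes were called (11.2% as higher). All 4 were cytosolic single-domain genes, and in each the mutant libraries lay above the WT libraries, as they did in 19.5% of all tested genes (40.1% without overlap in either direction). CYP18-3 was higher by 0.48 ± 0.07 on the log2 scale (SE, adjusted p = 0.000112 by edgeR) and CYP18-4 by 0.43 ± 0.07 (adjusted p = 0.00021). CYP19-2 was higher by 0.44 ± 0.13 (adjusted p = 0.0176) and CYP19-3 by 0.24 ± 0.07 (adjusted p = 0.0173). The calls of these last 2 were lost with plain library totals (adjusted p = 0.0965 and 0.355), that of CYP19-2 without WT normal replicate 3 or atcyp18-1 normal replicate 3 (0.0898 and 0.0638), and that of CYP19-3 without WT normal replicate 1 or atcyp18-1 normal replicate 1 (0.0952 and 0.0632). CYP19-1, the fifth gene of this kind, differed by 0.048 (95% interval -0.09 to 0.18, adjusted p = 0.64), and by -0.090 with plain library totals. The summed level of the 5 genes was 1.20-fold higher in the mutant with no overlap (exact permutation p = 0.1, the smallest possible).

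For the plastid members CYP20-3, CYP20-2 and CYP38, the secretory CYP20-1 and CYP40, the adjusted p-values in unheated seeds ran from 0.376 to 0.951, and their log2 differences from -0.07 to 0.33, with CYP20-1, CYP20-3 and CYP20-2 turning negative under plain library totals. The interval was widest for CYP40, at -0.20 to 0.87. The seed storage and maturation markers moved with genotype in the same libraries, 6 of 7 of them higher in atcyp18-1 normal, from 1703 to 2851 CPM summed in WT normal to 6234 to 7273 in the mutant, and their part in the higher cytosolic cyclophilins was not tested.

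In heated seeds, 3 members were higher in the mutant and 0 lower, where 16.7% of all tested genes were called (8.17% as higher and 8.49% as lower). CYP18-3 was the member called in both conditions, at 0.37 ± 0.07 (SE, adjusted p = 0.00163) in heat. CYP38 was higher by 0.40 ± 0.10 (adjusted p = 0.01) and CYP20-2 by 0.37 ± 0.09 (adjusted p = 0.0112). Each of the 3 had mutant libraries above all WT libraries. In all, 5 members had groups that did not overlap, 4 with the mutant above, against 32.6% of all tested genes (15% with the mutant above). Plain library totals ended the calls of CYP38 (0.24, adjusted p = 0.124) and CYP20-2 (0.21, adjusted p = 0.151) and made CYP19-1 (-0.28, adjusted p = 0.00697) and CYP20-3 (-0.22, adjusted p = 0.0459) lower in the mutant, so that 1 member was higher and 2 lower. In the TMM-scaled model the call of CYP20-2 was also lost without atcyp18-1 heat replicate 1 (adjusted p = 0.0628). For CYP18-4 (0.16, adjusted p = 0.123) and CYP19-1 (-0.12, adjusted p = 0.204) the groups did not overlap but the test was not passed. CYP40 differed by 0.49 (95% interval -0.03 to 1.01, adjusted p = 0.187), and passed without WT heat replicate 3 (0.85, adjusted p = 0.0289). The summed cytosolic level overlapped between genotypes in heat (1.05-fold, exact permutation p = 0.2), and was lower in the mutant with plain library totals (log2 ratio -0.088). Seed storage and maturation markers summed to 2006 to 3699 CPM in WT heat and 5246 to 8305 in atcyp18-1 heat, with 2 of 7 higher. The 3 heat markers summed to 1555 to 2981 CPM in WT heat and 2777 to 5179 CPM in atcyp18-1 heat, with 2 of 3 higher, and the leaf markers RBCS1A and RCA to 978 to 1140.2 CPM and 1152 to 1222 CPM, with 0 of 2 called. The part of these markers in the 3 higher members was not tested.

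None of the 10 members passed the test of the interaction, that is, of a difference between the heat changes of the 2 genotypes, where 1.08% of all tested genes passed. DESeq2 called 0 of them too. The lowest adjusted p-values by edgeR were those of CYP38 (0.47 ± 0.14, adjusted p = 0.0999), CYP18-4 (-0.27 ± 0.10, adjusted p = 0.185) and CYP20-2 (0.32 ± 0.14, adjusted p = 0.245). All 5 cytosolic single-domain genes had a negative difference, from -0.27 to -0.11, each with an adjusted p of 0.185 or more. Both heat comparisons and both genotype comparisons share libraries, so these values are not independent of each other.

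Other immunophilins gave a setting for these values. Of 10 further cyclophilins of the secretory pathway, plastid and mitochondria, 9 were tested. In WT heat 3 rose and 0 fell (median log2 change 0.20), where 25% of all tested genes were called higher and 25.1% lower. In the heated mutant 3 rose and 0 fell (0.24), where 22.9% of all tested genes were called higher and 23.4% lower. CYP37, of the thylakoid lumen, had the largest rise, from 13.2 ± 0.223 to 21.3 ± 1.69 CPM in WT (log2 change 0.69 ± 0.10, adjusted p = 1.36e-05) and from 12.7 ± 0.545 to 24.5 ± 1.57 CPM in the mutant (0.94 ± 0.11, adjusted p = 3.85e-07). In unheated seeds CYP28-1 was the one of them called between genotypes (0.76 ± 0.23, adjusted p = 0.0188), a call lost without WT normal replicate 1 (0.54, adjusted p = 0.111) or atcyp18-1 normal replicate 2 (0.62, adjusted p = 0.0959). Between these groups 23.4% of all tested genes were called. Of 9 nuclear cyclophilins, CYP18-1 among them, 2 rose and 2 fell in WT heat and 4 rose and 0 fell in the mutant. The mutated gene CYP18-1 was among these 4 (0.82, adjusted p = 0.00987 by edgeR), at 15 to 33 counts per heated mutant library. Its call was lost with plain library totals (adjusted p = 0.0535) and in 2 of the 12 fits with 1 library left out. CYP59, which has an RNA-binding domain, fell by 0.54 in WT (adjusted p = 0.00235), and CYP65 rose by 0.45 (adjusted p = 0.00197), or 0.24 with plain library totals, which ended the call (adjusted p = 0.0893).

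The FKBP-type immunophilins, a second and unrelated isomerase family, had 9 of 23 members higher and 2 lower in WT heat (median 0.28) and 10 higher and 0 lower in the heated mutant (median 0.34). Of all tested genes, 25% were called higher and 25.1% lower in WT heat, and 22.9% and 23.4% in the heated mutant. FKBP65 (ROF2), a heat-induced co-chaperone, went from 4.45 ± 1.19 to 225 ± 91.1 CPM in WT and from 2.82 ± 0.202 to 543 ± 204 CPM in the mutant (SD, n = 3 each), a change far above that of any of the 10 cyclophilins. FKBP72 (PASTICCINO1) fell by 0.56 in WT heat (adjusted p = 0.000146). In unheated mutant seeds 2 FKBPs were higher and 6 lower, led by FKBP16-1 (0.49, adjusted p = 0.00379) and FKBP62 (ROF1; -0.91, adjusted p = 0.000681), and in heated mutant seeds 4 were higher and 2 lower. Of all tested genes, 11.2% were called higher and 12.2% lower in unheated mutant seeds, and 8.17% and 8.49% in heated ones.

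The genes whose log2 CPM tracked a member most closely over the 12 libraries were found by Pearson's r, as a description. For CYP18-3 they were the mitochondrial ATMG00690 (0.991), BTI1 (0.990) and LEA4-5 (0.988), and for CYP20-3 AT1G30580 (0.992), AT3G47650 (0.990) and AT1G33810 (0.989). For CYP38 they were AMSH1 (0.968), AT1G67170 (0.943) and AT1G75340 (0.939), and for CYP40 AT5G66420 (0.923), PPD1 (0.922) and AT3G15220 (0.918). CYP20-1 had the lowest values, at 0.846 for AT4G17440, 0.845 for ATCOAE and 0.841 for CER2.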

How the data were processed

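Poly(A) RNA-seq counts of 12 libraries were used as deposited. Per the file headers the authors' table gives raw counts per transcript, and the submitters' processing notes name HTSeq and DESeq. Aligner and genome build: not given in the sources used here. No deposited count was below 1. From 57939 transcripts, 1 per gene was kept (the lowest-numbered annotated one for 23315 of 23337 genes). Per the file headers the deposited splicing tables hold, for introns, the authors' scaled signal, a ratio to exons and an unadjusted p-value. The test behind it is not stated.

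The test was that of edgeR 4.0.16 under R 4.3.3 (TMM, filterByExpr, quasi-likelihood F test, 1 model of 4 group means, Benjamini-Hochberg over 17296 genes, adjusted p under 0.05). SE is the log2 change over the square root of F. On simulated counts for heat in WT (17072 genes tested), 59.2% of 1.5-fold and 95.9% of 2-fold changes were recovered with 8 false calls. The simulation gave all genes the same dispersion and changed few of them, whereas 50.1% were called in the data. These rates therefore need not hold for the data. DESeq2 1.42.0 was an alternative. Samples were not treated as paired by replicate number: same-numbered correlations ran from -0.086 to 0.105, and 1 of 18 was above 0.1. In 10 of 18 the own number was the highest of 3, so a weak pairing is not excluded. No 2 libraries of a group agreed within counting noise.

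Levels between genes were divided by the mean length of the gene's RefSeq transcripts (TAIR10.1), since the deposited transcript names could not be matched to RefSeq accessions. Named genes were the 10 members, CYP18-1, the called gene with the largest rise and fall of each list, and the 3 closest in pattern to 5 members. Members and lists were chosen with earlier results of these data known. Protein sequences were not used here.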

Additional observations from a re-analysis of the deposited data

Results flagged for a closer look

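In the gene lists set beside the 10 cyclophilins, FKBP62, FKBP53, HSP90.1, HSP90.2 and the heat marker HSP101 had a heat change that differed between genotypes by the interaction test of edgeR; FKBP53, HSP90.2 and HSP101 are named here after their values were seen. FKBP62 (ROF1), an FKBP-type co-chaperone, was read at 90.7 ± 11.2 CPM in WT normal, 301 ± 77.0 in WT heat, 48.2 ± 0.818 in atcyp18-1 normal and 490.3 ± 127 in atcyp18-1 heat (SD, n = 3 each). Its heat change was larger in the mutant by 1.62 ± 0.23 on the log2 scale (adjusted p = 0.00256), and by 1.45 to 1.82 with each library left out in turn, passing each time. HSP90.1, a partner of CYP40, had a heat change larger in the mutant by 1.26 ± 0.26 (adjusted p = 0.0289), by 1.08 to 1.5 with each library left out, and did not pass in 6 of those 12 fits, nor in DESeq2 (adjusted p = 0.085). FKBP53 differed by 0.96 ± 0.13 (adjusted p = 0.00156) and passed with each library left out in turn. HSP90.2 differed by 0.60 ± 0.12 (adjusted p = 0.0251), and HSP101 by 1.42 ± 0.33 (adjusted p = 0.0434). With each library left out in turn, HSP90.2 did not pass in 5 and HSP101 in 9 of the 12 fits. With the filter on low counts left off, HSP90.1, HSP90.2 and HSP101 did not pass (adjusted p = 0.084, 0.084 and 0.112 by edgeR). HSP101 did not pass in DESeq2 (adjusted p = 0.135). None of the 10 cyclophilins met this test.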

How the results depend on the processing

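Of 1040 refits of the members' changes, 999 kept direction and side of the threshold, including every one with DESeq2, RLE size factors, counts minus 1, organelle genes left out or only the compared groups. Plain library sizes changed most (34 of 50 kept): the count of members called in unheated seeds between genotypes fell to 2, the summed cytosolic level in heat turned to -0.088, and signs turned for CYP20-1 in WT heat (-0.20), CYP38 in mutant heat (-0.22), in unheated mutant against WT for CYP19-1 (-0.090), CYP20-1 (-0.091), CYP20-3 (-0.13) and CYP20-2 (-0.088), in heated mutant against WT for CYP19-3 (-0.088), and for 2-CysPrxA in WT heat (-0.037). Without the filter, values near 0 turned for CYP20-1 in WT heat (-0.043) and CYP38 in mutant heat (-0.057), and all genes called for the interaction fell from 187 to 22. With the highest-count transcript CYP20-1 in WT heat was -0.0037. The cause was not tested.

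With each library left out, all genes called ranged from 12 to 314 for the interaction, 2457 to 4206 between unheated and 1689 to 2936 between heated genotypes. Values near 0 that changed sign ranged, for heat in WT, from -0.014 to 0.040 (CYP20-1) and -0.052 to 0.57 (CYP40), for heat in the mutant from -0.014 to 0.046 (CYP38), between unheated genotypes from -0.024 to 0.056 (CYP20-3), -0.016 to 0.12 (CYP20-2) and -0.11 to 0.017 (CYP38), between heated genotypes from -0.077 to 0.015 (CYP20-1) and -0.12 to 0.0073 (CYP20-3), and for the interaction from -0.10 to 0.52 (CYP40).

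With the replicate number as a block, no member's call changed and all genes called for the interaction rose to 323. In 10 of 18 pairs a library correlated best with the one of its own number. CYP40 had the fewest counts of the members, 25 to 72 a library, and its WT heat libraries (46, 25 and 72 counts) spread widely.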
